A study of Mus musculus with 4 samples.

Results

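Pericentral genes and feedback targets of Wnt signalling were compared between sorafenib-treated and carrier-treated mouse liver tumors. The set was chosen by name: Glul, Oat, Slc1a2, Lect2, Axin2, Lgr5, Tbx3, Rnf43, Znrf3 and Rhbg. Of these 10 symbols, 9 had a row in the tables, 1 row each, among 39179 genes. Rhbg is not analysed here. The tumors arose in wild-type C57BL/6 mice after hydrodynamic injection of transposons carrying Myc and the oncogenic Nras allele G12V, a method that delivers DNA to hepatocytes. All 4 libraries share these drivers. The mice then received carrier or sorafenib for 3 weeks on alternate days, and each group held 2 libraries. Sorafenib is a drug against liver cancer that blocks RAF, VEGF receptor and PDGF receptor kinases. No age is stated for the mice, and the labels do not say whether replicates are separate mice. The p-values thus rest on a spread between libraries that may not be the spread between mice.

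Liver cells differ by their place between the portal vein, where blood enters the lobule, and the central vein, where it leaves. Endothelial cells of the central vein release Wnt ligands and R-spondin 3, which stabilise beta-catenin in the hepatocytes around that vein. There beta-catenin with TCF factors switches on a pericentral program, of which glutamine synthetase is the best known gene, and feedback inhibitors such as Axin2, Rnf43 and Znrf3 that dampen the same signal. Periportal hepatocytes make urea and glucose and have little beta-catenin activity.

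Values are CPM, reads per 1000000 counted reads, and a level in CPM per kilobase divides that by the length of the gene's merged exons, for comparison between genes. Log2 fold changes subtract the carrier mean of log2(CPM + 1) from the sorafenib mean, so that changes of genes with low values are understated, and the test was limma with adjustment over all 13149 genes that had at least 1 CPM in at least 2 libraries. All 9 genes passed that filter. The libraries held 4067427 to 5932939 reads. Sorafenib replicate 2 stood apart: the summed level of the oncofetal tumor markers H19, Igf2, Afp and Gpc3 was 38114 and 33035 CPM with carrier, but 15189 CPM in replicate 1 and only 84.1 CPM in replicate 2 of the sorafenib group. Results are therefore also given for each sorafenib library alone. The hepatocyte markers Alb, Ttr, Apoa1, Hnf4a, Cebpa and Tat were present in all 4 libraries, with a summed level of 121380 and 134790 CPM against 108220 and 96601 CPM. Alb made up most of each sum, at 91592 and 107510 CPM against 79607 and 71696 CPM. Of the 6 markers, 4 had log2 fold changes above 0 and 2, Alb and Apoa1, below 0. In bulk samples, fewer cells of a type and less RNA per cell cannot be told apart.

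The start regions of the 4 most abundant of these genes in CPM are shown from RefSeq on GRCm38.p6. On the log2(CPM + 1) scale these genes also had the 4 largest log2 fold changes, but that order depends on the added 1. With 0.25 added in place of 1, Axin2 was at 1.373 and Glul at 1.224. Each start region runs from 250 bases before to 50 bases after a transcription start and is written 5′ to 3′ on the gene's strand. Capitals mark a TCF/LEF core motif. The letters searched on both strands were CTTTGAA or CTTTGAT, and also CTTTGTA or CTTTGTT, which differ in their ends, so that a stretch matches only 1 of them on a strand. The Glul window is chr1:153899679-153899978 (plus strand), the Oat window chr7:132576349-132576648 (minus), the Slc1a2 window chr2:102706188-102706487 (plus) and the Lect2 window chr13:56548489-56548788 (minus).
Glul: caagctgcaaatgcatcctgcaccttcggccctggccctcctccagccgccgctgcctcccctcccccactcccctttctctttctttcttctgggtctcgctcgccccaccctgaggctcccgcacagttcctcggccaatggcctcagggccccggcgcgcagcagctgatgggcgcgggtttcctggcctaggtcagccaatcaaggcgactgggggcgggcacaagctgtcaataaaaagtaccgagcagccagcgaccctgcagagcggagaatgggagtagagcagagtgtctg
Oat: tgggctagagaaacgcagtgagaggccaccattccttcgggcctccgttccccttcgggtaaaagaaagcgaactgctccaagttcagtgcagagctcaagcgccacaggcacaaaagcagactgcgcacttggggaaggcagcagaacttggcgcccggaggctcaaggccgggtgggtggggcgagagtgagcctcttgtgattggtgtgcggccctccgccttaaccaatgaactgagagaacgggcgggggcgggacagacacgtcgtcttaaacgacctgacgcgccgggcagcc
Slc1a2: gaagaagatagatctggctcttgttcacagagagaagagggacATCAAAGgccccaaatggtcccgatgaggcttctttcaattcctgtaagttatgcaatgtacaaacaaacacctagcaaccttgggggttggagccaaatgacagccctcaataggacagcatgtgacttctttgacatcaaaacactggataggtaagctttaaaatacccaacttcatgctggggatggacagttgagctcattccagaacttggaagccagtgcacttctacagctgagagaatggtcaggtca
Lect2: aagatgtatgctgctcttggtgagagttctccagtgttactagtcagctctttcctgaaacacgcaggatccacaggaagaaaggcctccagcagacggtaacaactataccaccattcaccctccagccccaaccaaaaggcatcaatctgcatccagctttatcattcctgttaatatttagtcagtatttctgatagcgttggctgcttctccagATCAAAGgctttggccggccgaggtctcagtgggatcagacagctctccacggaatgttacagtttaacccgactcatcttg
RefSeq windows were found for 6 of the 9 genes (Glul, Oat, Slc1a2, Lect2, Axin2 and Rnf43), 7 windows in all because Rnf43 has 2. The motif was in 2 of the 7 windows, as CTTTGAT on the opposite strand in each (read as ATCAAAG above), beginning at position -207 from the start in Slc1a2 and at -32 in Lect2. Of all 32851 windows of this length, 16.9% held at least 1 of these motifs. The Slc1a2 window belongs to a start inside the annotated gene.

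The metabolic genes of the pericentral program had higher values in each sorafenib library than in either carrier library. Glul (ENSMUSG00000026473, chromosome 1, 153899944 to 153909723 on GRCm38), glutamine synthetase, which joins ammonia to glutamate in the last hepatocytes before the central vein, was at 551.5 CPM in the first carrier library and 383 CPM in the second, and at 927 and 1246 CPM with sorafenib. The groups did not overlap, and the lowest sorafenib value was 1.68 times the highest carrier value. Means were 1086 ± 226 against 467 ± 119 CPM (SD, n = 2 each), giving a log2 difference of 1.22 (SE 0.291, 95% interval 0.52 to 1.93, limma adjusted p = 0.24).

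Oat (ENSMUSG00000030934, chromosome 7, 132557478 to 132576398), ornithine aminotransferase, which turns ornithine toward glutamate beside Glul, was at 201 and 163 CPM with carrier and at 841 and 927 CPM with sorafenib. This was the widest separation of the set, with the lowest sorafenib value at 4.19 times the highest carrier value. Its log2 fold change was 2.28 (SE 0.223, 95% interval 1.74 to 2.83, limma adjusted p = 0.158). In CPM per kilobase, Oat stood below Glul in both carrier libraries, with 85 and 69 against 166 and 115. In the sorafenib libraries Oat was at 356 and 393 CPM per kilobase and Glul at 279 and 375, ranges that overlap.

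Slc1a2 (ENSMUSG00000005089, chromosome 2, 102658659 to 102790784), the glutamate transporter GLT-1, which brings in the substrate of glutamine synthetase, was at 70.5 and 58.5 CPM in carrier and at 153 and 182 CPM in sorafenib tumors. Lect2 (ENSMUSG00000021539, chromosome 13, 56542464 to 56548502), a secreted liver protein and known beta-catenin target, was at 60.8 and 54.1 CPM against 133 and 168 CPM. Neither gene's groups overlapped, and the means were 2.603 and 2.62 times those of the carrier tumors. Both log2 fold changes were 1.37 (SE 0.223 for Slc1a2 and 0.225 for Lect2, limma adjusted p = 0.24 each). Per kilobase the order differed from CPM: Lect2, with the shortest merged exons of the set at 0.919 kilobases, was at 62.6 ± 5.16 CPM per kilobase in carrier tumors and Slc1a2, with 13.1 kilobases, at 4.91 ± 0.645.

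**Figure D1:**
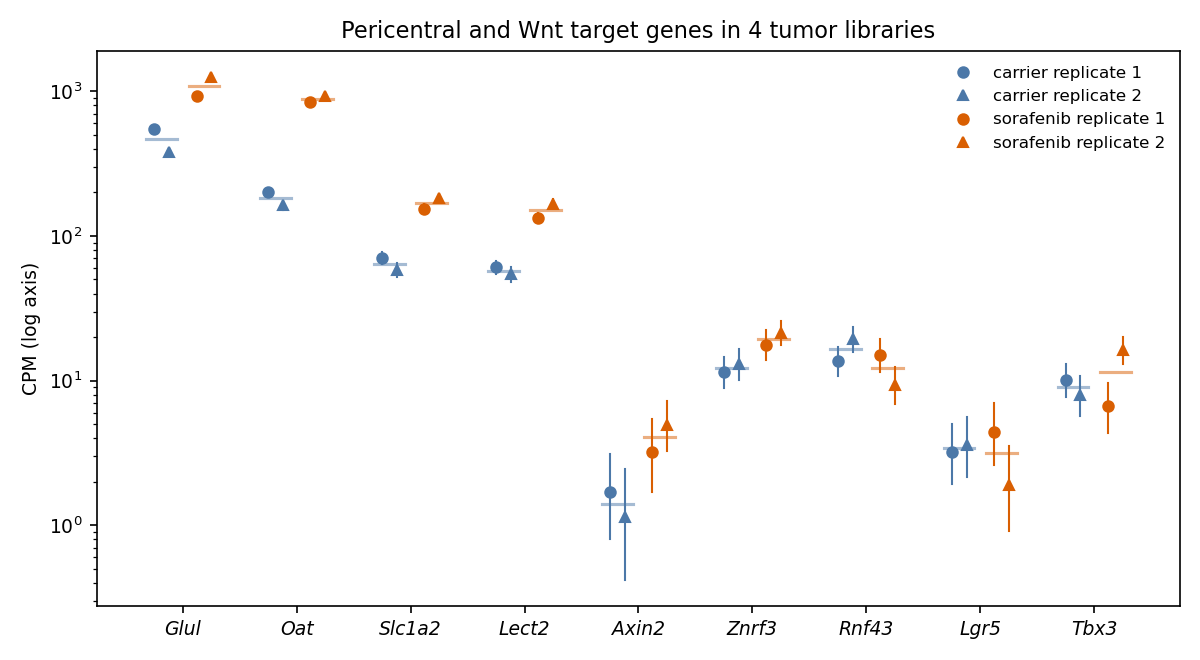
CPM of the 9 genes in each library on a log axis, with carrier in blue, sorafenib in orange, circles for replicate 1, triangles for replicate 2, horizontal bars for group means and vertical lines for exact Poisson 95% intervals of counting error. Glul, Oat, Slc1a2, Lect2, Axin2 and Znrf3 have both sorafenib libraries above both carrier libraries, while Rnf43, Lgr5 and Tbx3 overlap.

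The feedback inhibitors of Wnt signalling were split. Axin2 (ENSMUSG00000000142, chromosome 11, 108920349 to 108950783), a scaffold of the complex that destroys beta-catenin and a widely used readout of the pathway, was at 1.69 and 1.13 CPM with carrier and at 3.20 and 4.96 CPM with sorafenib. The groups did not overlap, but these values rest on 10 and 6 against 13 and 26 reads. The exact Poisson 95% intervals, which cover counting error only, were 0.808 to 3.1 and 0.415 to 2.46 CPM in carrier and 1.70 to 5.47 and 3.24 to 7.26 CPM in sorafenib tumors, so that only sorafenib replicate 2 lay clear of both carrier intervals. The log2 fold change was 1.06 (SE 0.388, 95% interval 0.12 to 2.01, limma adjusted p = 0.258). At these low values the added 1 understates the change. The sorafenib mean of Axin2 was 2.893 times the carrier mean, a ratio above those of Glul, Slc1a2 and Lect2 and below that of Oat.

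Znrf3 (ENSMUSG00000041961, chromosome 11, 5276324 to 5444847), a membrane ubiquitin ligase that removes Frizzled receptors from the cell surface, was at 11.5 and 13.02 CPM against 17.7 and 21.3 CPM. Its groups did not overlap, with a log2 fold change of 0.63 (SE 0.299, 95% interval -0.10 to 1.36, limma adjusted p = 0.291). These values rest on 68 and 69 against 72 and 112 reads. The Poisson 95% interval of sorafenib replicate 1, 13.85 to 22.3 CPM, overlapped both carrier intervals, 8.90 to 14.5 and 10.1 to 16.5 CPM. That of sorafenib replicate 2, 17.6 to 25.7 CPM, lay above both. Rnf43 (ENSMUSG00000034177, chromosome 11, 87662722 to 87735539), the related ligase with the same task, was at 13.7 and 19.2 CPM in carrier and at 15.0 and 9.34 CPM in sorafenib tumors, where sorafenib replicate 1 lay between the carrier libraries and sorafenib replicate 2 below both. Its log2 fold change was -0.42 (SE 0.369, 95% interval -1.32 to 0.48, limma adjusted p = 0.519). Whether the changes of Znrf3 and Rnf43 differ from each other was not tested.

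For Lgr5 and Tbx3 the 2 sorafenib libraries lay on opposite sides of the carrier libraries. Lgr5 (ENSMUSG00000020140, chromosome 10, 115450311 to 115587780), a receptor for R-spondins that is restricted to hepatocytes next to the central vein in normal mouse liver, was at 3.20 and 3.58 CPM with carrier, and sorafenib replicate 1 had 4.43 CPM while replicate 2 had 1.91 CPM, or 19, 19, 18 and 10 reads. Its log2 fold change was -0.14 (SE 0.435, 95% interval -1.20 to 0.91, limma adjusted p = 0.857), and 0.04 with TMM factors. Tbx3 (ENSMUSG00000018604, chromosome 5, 119670669 to 119684724), a T-box transcription factor and known beta-catenin target in liver, was at 10.1 and 7.92 CPM with carrier, and sorafenib replicate 1 had 6.64 CPM while replicate 2 had 16.2 CPM. Its log2 difference was 0.20 (SE 0.470, 95% interval -0.94 to 1.35, limma adjusted p = 0.812).

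**Figure D2:**
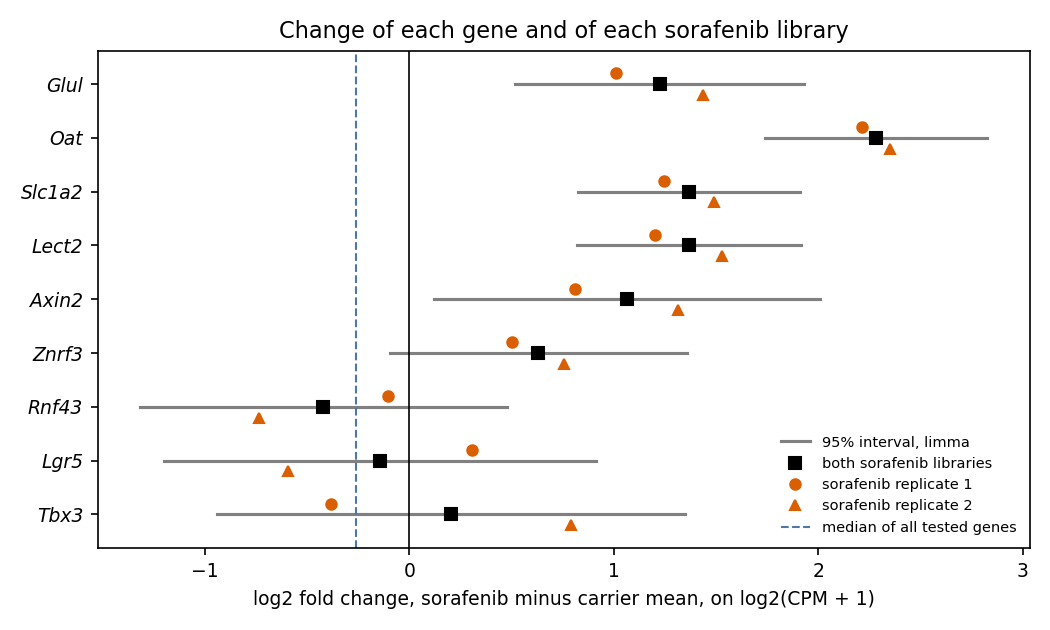
Log2 fold change of each gene on the log2(CPM + 1) scale (squares, both sorafenib libraries against both carrier libraries) with the limma 95% interval, and the difference of each sorafenib library from the carrier mean (orange circle for replicate 1, triangle for replicate 2). The dashed line is the median of all 13149 tested genes, -0.26, and the 2 sorafenib points have opposite signs for Lgr5 and Tbx3.

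Of the 9 genes, 0 passed the threshold, as did 0 of all 13149 genes tested by limma (0%) and 0 by edgeR's quasi-likelihood test on the recovered reads. An unadjusted limma p below 0.05 with a higher sorafenib value was found for 5 of the 9 genes (Glul, Oat, Slc1a2, Lect2 and Axin2), against 836 of all tested genes (6.36%), and 1693 of all tested genes (12.9%) had such a p in the lower direction. The sorafenib pair lay entirely above the carrier pair for 6 of the 9 genes and below it for 0, against 17.5% above and 41.3% below over all tested genes, or 27.2% and 29.1% with TMM factors, which left the count of 6 as it was. The median log2 fold change of the 9 genes was 1.06, beside -0.26 over all tested genes on CPM, and 1.24 beside -0.04 with TMM factors. It was 0.81 in sorafenib replicate 1 and 1.32 in sorafenib replicate 2, where the medians of all tested genes were -0.10 and -0.40. DESeq2 on the recovered reads called Glul, Oat, Slc1a2 and Lect2 higher (adjusted p = 0.00438, 9.09e-12, 0.000409 and 0.000592), where it called 3.79% of all tested genes, 3.42% higher and 0.365% lower. With 2 libraries a group, an exact two-sided permutation test of a single gene cannot go below p = 0.333.

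Without sorafenib replicate 2, the library with the lowest summed oncofetal level, limma called the same 4 genes, Glul, Oat, Slc1a2 and Lect2, with log2 fold changes of 1.01, 2.21, 1.24 and 1.20 and adjusted p of 0.0181, 4.83e-06, 0.00341 and 0.00444, where 3.78% of all tested genes were called, 2.05% higher and 1.73% lower. Without sorafenib replicate 1, those 4 and Axin2 were called (adjusted p of Axin2 = 0.0167), where 40.8% of all tested genes were called, 9.46% higher and 31.4% lower. Without carrier replicate 1, 0 of the 9 were called, beside 0.00795% of all tested genes, all of them higher, and without carrier replicate 2 none was. A lone sorafenib library is assumed in these fits to vary like the carrier pair. Among genes with at least 10 reads in the 2 libraries of a pair together, the chi-square per degree of freedom between replicates was 9.09 with carrier (13420 genes) and 40.9 with sorafenib (12556 genes). For Glul, replicate 2 minus replicate 1 on the log2 scale was -0.52 in the carrier pair and 0.43 in the sorafenib pair.

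Per kilobase, Glul, Oat, Lect2 and Slc1a2 held the first 4 places in every library, and the Wnt feedback genes, Lgr5 and Tbx3 lay below them. In carrier tumors Rnf43 was at 2.51 ± 0.603, Znrf3 at 1.55 ± 0.139, Tbx3 at 1.36 ± 0.234, Lgr5 at 0.331 ± 0.0263 and Axin2 at 0.256 ± 0.0711 CPM per kilobase (SD, n = 2 each), and the ranges of Znrf3 and Tbx3 overlapped. In sorafenib tumors Znrf3 was at 2.47 ± 0.327, Rnf43 at 1.86 ± 0.61, Tbx3 at 1.72 ± 1.02, Axin2 at 0.740 ± 0.226 and Lgr5 at 0.308 ± 0.174 CPM per kilobase, where the ranges of Znrf3, Rnf43 and Tbx3 overlapped. Axin2 was below Lgr5 in both carrier libraries, by 0.306 against 0.312 CPM per kilobase in replicate 1, which is within counting error. It was above Lgr5 in both sorafenib libraries, by 0.580 against 0.431 CPM per kilobase in replicate 1. These orders rest on few reads, 10 and 6 with carrier and 13 and 26 with sorafenib for Axin2. Lgr5 had 19 and 19 against 18 and 10 reads, and the order was not tested. All 9 genes are annotated as protein-coding, and Axin2, Rnf43 and Znrf3 lie on the same chromosome, far apart. Some annotated exons of other genes overlap Glul (Teddm2), Slc1a2 (Gm13872), Axin2 (Gm11670) and Tbx3 (Tbx3os1) on the opposite strand, and these were at 0 to 0.762 CPM. On the same strand, the microRNA gene Mir8114 shares 93 exon bases with Glul and was at 0 to 0.191 CPM.

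Most other genes of the pericentral zone also had higher values with sorafenib. Of 21 listed genes, all tested, 18 had groups that did not overlap with sorafenib higher and 0 with sorafenib lower. Over all tested genes these shares were 17.5% and 41.3% on CPM, or 27.2% and 29.1% with TMM factors. The list's median log2 fold change was 1.33, or 1.20 and 1.48 in sorafenib replicates 1 and 2. None passed the limma threshold, while DESeq2 called 15 higher and 0 lower, against 3.42% and 0.365% of all tested genes. Aldh1a1, which oxidises retinal to retinoic acid, was at 218 and 226 CPM against 560 and 561 CPM (log2 difference 1.33, limma adjusted p = 0.24). Lhpp, a phosphatase, was at 29.3 and 20.2 CPM against 86.3 and 108 CPM. Cyp2e1, the ethanol-oxidising cytochrome P450, was at 1002 and 1573 CPM against 3828 and 4741 CPM. Lhpp and Cyp2e1 thus also had groups that did not overlap. The members with negative fold changes were Ahr, the dioxin receptor, and Gstm3, a glutathione transferase, at -0.11 and -0.14, and both turned positive with TMM factors (0.13 and 0.11). Cyp7a1, the rate-limiting enzyme of bile acid synthesis, was at 53.4 and 30.6 CPM with carrier, and sorafenib replicate 1 had 202 CPM while replicate 2 had 18.7 CPM.

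Most genes of the opposite, periportal zone had higher values as well. Of 18 listed genes, all tested, 14 had groups that did not overlap with sorafenib higher and 3 with sorafenib lower. The shares over all tested genes were 17.5% and 41.3% on CPM, or 27.2% and 29.1% with TMM factors. The list's median log2 fold change was 1.06, or 0.79 and 1.41 in sorafenib replicates 1 and 2. None passed the limma threshold, and DESeq2 called 11 higher and 0 lower, against 3.42% and 0.365% of all tested genes. Ass1, argininosuccinate synthase of the urea cycle, was at 252 and 236 CPM against 572 and 830 CPM, and Pigr, the receptor that carries IgA across epithelium, was at 136 and 205 CPM against 486 and 986 CPM. Both genes' groups were apart. The 3 with lower values were Gldc, the glycine cleavage enzyme, at 179 and 151 against 109 and 73.8 CPM, Cdh1, E-cadherin, at 136 and 184 against 117 and 30.9 CPM, and Hsd17b13, a lipid droplet protein, at 694 and 804 against 611 and 299 CPM. No test of a difference between the lists was made.

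**Figure D3:**
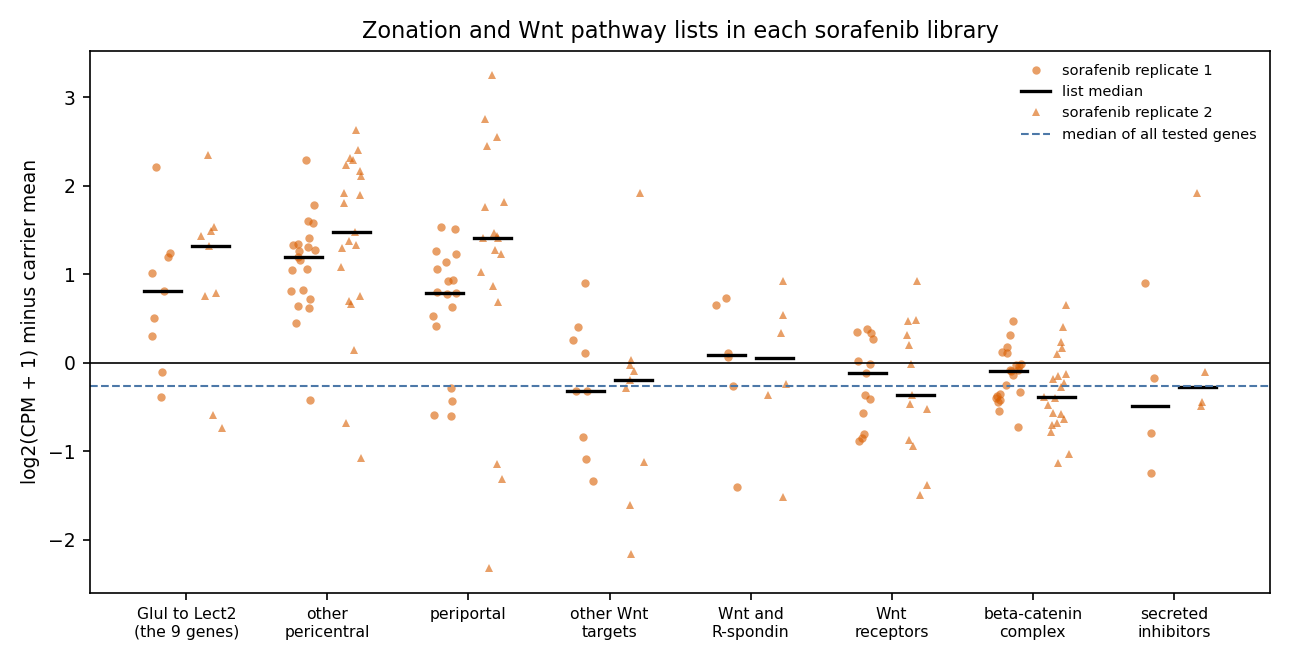
Difference of each sorafenib library from the carrier mean on the log2(CPM + 1) scale, 1 point per tested gene (circles for replicate 1, triangles for replicate 2), with black bars at the list medians and a dashed line at the median of all tested genes, -0.26. The 9 genes and both zonation lists have medians between 0.79 and 1.48, and the Wnt pathway lists have medians between -0.48 and 0.09.

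Other genes known to respond to Wnt in one or more tissues did not share a direction. Of 14 listed, 9 were tested, of which 1 was above both carrier libraries, 3 were below and 5 overlapped on CPM. With TMM factors 2 were above and 3 below. Among all tested genes 17.5% were above and 41.3% below on CPM, or 27.2% and 29.1% with TMM factors. The median log2 fold change of the list was -0.14 on CPM and 0.08 with TMM factors. The gene above on CPM was Notum, a secreted enzyme that inactivates Wnt ligands and is made by pericentral hepatocytes. It was at 18.4 and 10.8 CPM against 27.3 and 56.0 CPM, with a log2 difference of 1.41 (SE 0.436, limma adjusted p = 0.242, DESeq2 adjusted p = 0.0247). Those below were Ccnd1, cyclin D1, at 39.6 and 35.1 against 16.96 and 16.6 CPM, Cd44, a hyaluronan receptor, at 11.8 and 10.9 against 5.90 and 3.05 CPM, and Myc, at 70.6 and 78.1 against 28.8 and 15.8 CPM, which DESeq2 called lower (adjusted p = 0.00463). Reads of the injected Myc that map to this gene cannot be told apart from those of the mouse's own gene. Sox9, a progenitor and biliary transcription factor, was at 1.52 and 5.09 against 3.69 and 2.86 CPM, with overlapping groups. Nkd1, another feedback inhibitor, was at 3.88 and 2.83 against 2.46 and 3.05 CPM, with overlapping groups. Apcdd1, Lef1, Ascl2, Wif1 and Dkk4 were below the filter.

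The genes that carry the signal inside the cell gave no calls. Of 22 genes for beta-catenin, its destruction complex, Dishevelled and nuclear partners, 21 were tested, of which 0 were above and 8 below both carrier libraries on CPM, or 3 above and 6 below with TMM factors, shares below that are near those of all tested genes (41.3% on CPM and 29.1% with TMM factors), and limma and DESeq2 each called 0. Ctnnb1, beta-catenin itself, was at 259 and 234 CPM against 169 and 143 CPM. Its log2 difference was -0.66 (SE 0.210, limma adjusted p = 0.243) and -0.41 with TMM factors. Bcl9, a beta-catenin co-activator, was at 12.5 and 10.9 against 6.64 and 4.77 CPM. Tcf7l2, a DNA-binding partner of beta-catenin, was at 23.6 and 30.9 against 30.7 and 32.02 CPM, and Gsk3a, a kinase that marks beta-catenin for destruction, at 27.1 and 21.5 against 23.8 and 32.2 CPM, both with overlapping groups.

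Among 19 genes for Wnt receptors, R-spondin receptors and Wnt secretion, 13 were tested, and limma and DESeq2 each called 0. On CPM 3 were above and 6 below both carrier libraries (4 and 4 with TMM factors). The shares of all tested genes were 17.5% above and 41.3% below (27.2% and 29.1% with TMM factors). Lrp5, a Wnt co-receptor, was at 52.6 and 52.1 against 39.1 and 28.2 CPM, and Wls, which carries Wnt ligands to the cell surface, at 7.08 and 11.5 against 4.43 and 2.86 CPM. Porcn, which attaches the lipid that Wnt ligands need, was at 3.71 and 3.96 against 5.16 and 8.20 CPM, and the receptor Fzd1 at 2.36 and 2.83 against 3.69 and 4.003 CPM. Lgr4, the paralog of Lgr5, was at 52.1 and 53.8 against 64.2 and 60.8 CPM, while Lgr6 was at 0 to 0.191 CPM. The other tested paralogs of the set were Axin1, at 21.7 and 22.3 against 19.9 and 13.2 CPM, and Tbx2, at 8.09 and 13.6 against 7.87 and 4.77 CPM. Axin1 and Tbx2 were below both carrier libraries on CPM, but 0 of the tested paralogs were below with TMM factors.

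Ligand transcripts were scarce. Of 23 Wnt and R-spondin genes, 8 were at 0 in all 4 libraries and 6 were tested, of which limma called none. On CPM 2 were above and 2 below both carrier libraries, where 17.5% of all tested genes were above and 41.3% below. A count of 0 allows up to 0.506 to 0.738 CPM, the value of 3 reads. Wnt2 and Wnt9b, the ligands known from central vein endothelium, were at 0.674 and 2.83 against 3.20 and 1.14 CPM and at 0.337 and 3.02 against 0.492 and 0.572 CPM, with overlapping groups, and Wnt9b did not pass the filter. Rspo3, the R-spondin of the central vein, was at 3.71 and 3.77 against 2.95 and 2.67 CPM, or 22 and 20 against 12 and 14 reads (log2 fold change -0.32, limma adjusted p = 0.61). Wnt5a, a ligand of beta-catenin-independent signalling, was at 3.54 and 2.45 against 0.492 and 0.381 CPM, or 21 and 13 against 2 and 2 reads. Wnt2b was at 1.18 and 0.377 against 1.72 and 2.29 CPM, or 7 and 2 against 7 and 12 reads. Wnt5b was at 2.53 and 3.77 against 3.44 and 4.96 CPM, or 15 and 20 against 14 and 26 reads. Of 13 secreted inhibitors and their co-receptors, a list that also holds Notum, Wif1 and Dkk4, 4 were tested, with 1 above (Notum) and 2 below on CPM (0 below with TMM factors), and 3 were at 0 in all libraries. The 2 below were Dkk3, at 3.37 and 1.70 against 0.983 and 1.53 CPM, and Kremen1, a Dkk co-receptor, at 10.4 and 9.81 against 8.85 and 9.34 CPM. Sfrp1 overlapped, at 1.35 and 4.34 against 0.492 and 1.53 CPM.

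Markers of other cell types are read here against the 41.3% of all tested genes that lay below both carrier libraries on CPM, or 29.1% with TMM factors. The shares above both carrier libraries were 17.5% and 27.2%. DESeq2 called 0.365% of all tested genes lower and 3.42% higher. None of the 10 endothelial markers was above both carrier libraries and 7 were below (6 with TMM factors), with a summed level of 376 and 394 against 295 and 116 CPM, and Cdh5, VE-cadherin, was at 35.4 and 38.5 against 17.9 and 5.91 CPM. All 8 macrophage markers were below on both scalings, with a summed level of 246 and 299 against 136 and 66.1 CPM, and DESeq2 called 1 of them, Csf1r (adjusted p = 0.0273). Of 9 stellate cell and fibroblast markers, 6 were below (5 with TMM factors) and 1, Lrat, was above, with a summed level of 389 and 594 against 279 and 217 CPM, and DESeq2 called 4 of them lower (Col1a1, Col1a2, Col3a1 and Acta2). No gene of these 3 lists was at 0 in any library. The 6 biliary markers summed to 485 and 687 against 534 and 121 CPM, with Krt19 at 0 in sorafenib replicate 1 and Cftr at 0 in carrier replicate 1. The 6 leukocyte markers summed to 36.9 and 35.8 against 32.5 and 14.7 CPM. Of the 6 hepatocyte markers, 2 were above (Tat and Ttr) and 2 below (Alb and Apoa1) on CPM, or 3 above and 1 below with TMM factors. The 9 pericentral and Wnt genes summed to 923 and 703 against 2101 and 2576 CPM. The part of tissue composition in the values of Glul, Oat, Slc1a2, Lect2, Axin2 and Znrf3 was not tested.

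**Figure D4:**
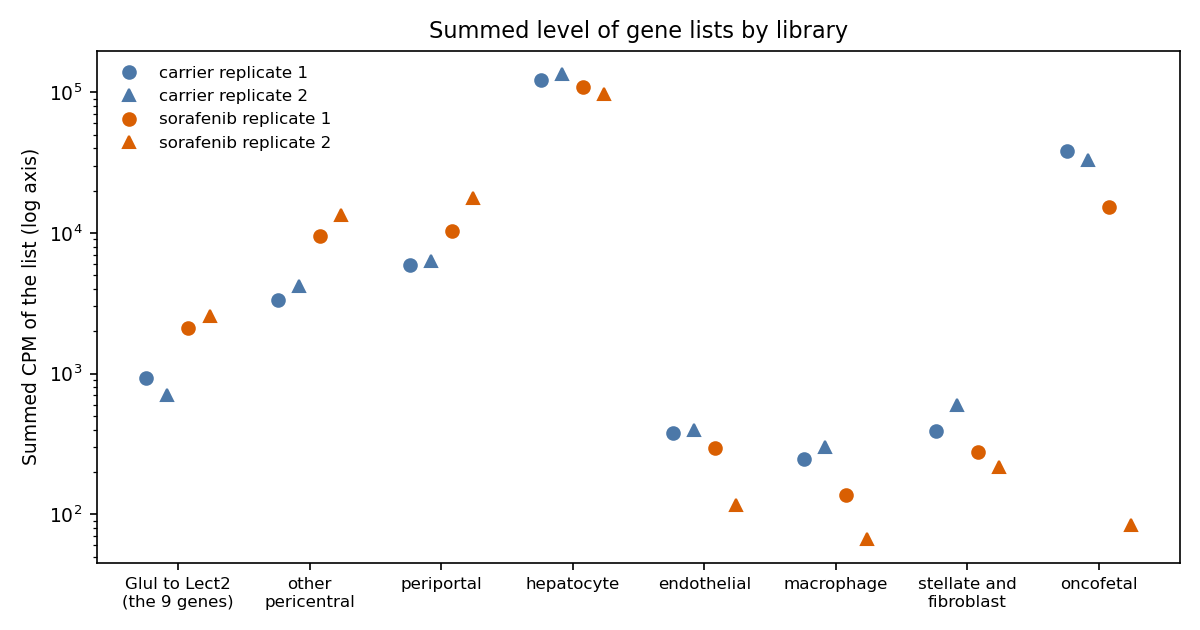
Summed CPM of each gene list in each library on a log axis, with carrier in blue, sorafenib in orange, circles for replicate 1 and triangles for replicate 2. The 9 genes and both zonation lists are higher in both sorafenib libraries, and the endothelial, macrophage, stellate and oncofetal lists are lower, with sorafenib replicate 2 the lowest in each.

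The genes whose values over the 4 libraries were most like those of Glul were sought among tested genes with a mean of at least 5 CPM, by the root mean square difference of log2(CPM + 1) values centred on each gene's own mean. The closest of 9892 genes were A330023F24Rik (0.0490), Cmbl (0.0649), Asl (0.0868), Tdrp (0.0959) and Trim65 (0.102). Asl, argininosuccinate lyase of the urea cycle and a member of the periportal list, was at 351 and 282 against 597 and 873 CPM. Tdrp and Trim65 were at 3.02 to 14.3 CPM, where the pseudocount narrows differences that it leaves nearly whole at the level of Glul. For Axin2, at 1.13 to 4.96 CPM, no likeness is given, since the pseudocount sets much of the size of its differences. These likenesses rest on 4 libraries in 2 groups.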

How the data were processed

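Libraries of polyA-selected RNA were made with a stranded TruSeq kit, per the labels' protocols. Per the submitters' processing notes, the tools were edgeR 3.22.5, Subread 1.6.3 and STAR 2.6.1c, with the build GRCm38. What each tool did, and whether reads were counted by strand, is not stated there. The authors deposited 1 table per library in CPM: each column summed to 1000000, and 100% of the values above 0 were whole multiples of a single step, within 0.01 of an integer, which gave back whole reads. The main test was limma 3.58.1 (R 4.3.3) on log2(CPM + 1) with a mean-variance trend and no scaling factors, a Benjamini-Hochberg threshold of 0.05 and 95% intervals from the same fit. edgeR 4.0.16 and DESeq2 1.42.0 on the recovered reads were alternatives, as were TMM, RLE and upper-quartile factors. The tests were checked on simulated reads that had the same spread in both groups. The real pairs differed in spread, so that check does not show how the tests behave on them. Replicate libraries were not duplicates: their reads departed from sampling noise, with a chi-square of 9.09 (carrier) and 40.9 (sorafenib) for each degree of freedom. GENCODE M21 (GRCm38) gave positions and exon lengths and held 37693 of the 39179 identifiers. DESeq2 gave no adjusted p for 2040 of the tested genes, which count as not called. The genes, lists and tests were chosen with earlier results of these data known. Genes named from a list were taken from the 2 of lowest p on either side, or those needed to state a count of 5 or fewer. Cyp2e1, Cyp7a1, Nkd1, Wnt2, Wnt9b and Lgr6 fall outside that rule and were added after their values were seen. The genes most like Axin2, which the rule also asks for, are left out because its values are near the pseudocount.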

Additional observations from a re-analysis of the deposited data

How the results depend on the processing

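Limma called 0 genes, and 0 of the 9 pericentral and Wnt genes, with a pseudocount of 0.25, without a filter, with a minimum of 5 CPM, with TMM, upper-quartile or RLE factors, without a variance trend and with the replicate number as a block (0 genes called with the replicate block), as did edgeR's quasi-likelihood test. DESeq2 called 498 genes and 4 of the 9. Leaving out 1 library gave 0 to 5245 genes and 0 to 5 of the 9, with 5245 and 5 without sorafenib replicate 1, and 489 and 4 without sorafenib replicate 2, where the lone library takes its spread from the carrier pair. The median log2 fold change of the 9 genes was 1.501 with edgeR and 1.52 with DESeq2, which use scaling factors and no pseudocount of 1. Lgr5 turned positive with TMM (0.0371) and RLE factors (0.0490), edgeR (0.10) and DESeq2 (0.11), and ranged from -0.59 to 0.31 when 1 library was left out. Tbx3 ranged from -0.38 to 0.79 in the same way. For both, the cause was not tested. The other 7 genes kept their direction in every alternative; Axin2 and Lgr5 gave no value with the minimum of 5 CPM. Same-numbered libraries of the 2 groups deviated with a correlation of 0.15 across genes, and the numbers give no pairing by design.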
